A study of Mus musculus with 8 samples.

Results

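Genes that regulate the mesendoderm and the endoderm were followed across mouse embryonic stem cells that had lost 1 of 3 enhancers. The list held Gsc, T, Mixl1, Eomes, Foxa2, Gata4, Gata6, Sox17, Pdgfra and Cer1, taken by symbol. Of these 10 genes, 9 were found among the 17812 gene identifiers of the series, and Gata4 was not analysed here. Gsc and T were lower in every knockout sample than in either wild-type sample, and Mixl1 was higher in every knockout sample, although at under 1 FPKM throughout. How many of all genes were separated from wild type in this way was not counted, so such separation is not shown to be unusual. Gata6 rose in 1 knockout and lay below wild type in the other two. Foxa2, Sox17, Pdgfra and Cer1 stayed under 1 FPKM in all 8 samples.

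The cells were E14TG2a, an embryonic stem cell line of the 129/Ola strain, at passages 3 to 6. All 4 groups grew without feeder cells on gelatin in medium with serum, leukaemia inhibitory factor, the GSK3 inhibitor CHIR99021 and the MEK inhibitor PD0325901, an addition that keeps such cells pluripotent. Wild-type cells (WT) had no edit, and the cells called E1-KO, E2-KO or E3-KO lacked 1 enhancer after CRISPR/Cas9 editing, in a study of how enhancers and promoters act together on Sox2. Each group had 2 samples, called biological duplicates, and the labels give neither the positions of the enhancers nor whether a knockout was 1 clone. No edited cells with intact enhancers were analysed here, so the enhancer loss cannot be told apart from clone, culture or library differences between groups. The deposited levels, whose unit is not stated, were taken as FPKM, the number of fragments scaled to transcript length and library size, which can be compared between genes.

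The samples carried the markers of embryonic stem cells, with Pou5f1 at 360 to 553.1 FPKM and Nanog at 372.8 to 618.1 FPKM. Other pluripotency factors fell in every knockout, namely Klf4 from 170.0 FPKM in WT to group means of 75.0 to 86.1 (limma-trend adjusted p 0.00019 to 0.000452) and Tfcp2l1 from 162 to between 80.3 and 108 (adjusted p 0.000332 to 0.00281). Sox2 was 133 ± 4.05 FPKM in WT, where E1-KO had 59.2 ± 1.58, E2-KO 106 ± 11.3 and E3-KO 94.4 ± 4.79 (mean ± SD, n = 2 samples each, as for all such values below). Of 6 fibroblast markers, 4 were under 0.3 FPKM in all samples. Absolute depth was unknown. Relative depth, estimated roughly from the steps between low values, was 0.787 to 1.01 of WT replicate 1. Over all tested genes the median log2 fold change against WT was -0.06 with E1-KO, -0.08 with E2-KO and -0.15 with E3-KO.

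The mesendoderm is the cell population of the primitive streak that gives rise to mesoderm and definitive endoderm. Nodal, acting through activin receptors, SMAD proteins and FOXH1, and WNT, acting through beta-catenin and the TCF/LEF factors, switch on T, Eomes, Mixl1 and Gsc there, and Foxa2, Sox17 and Cer1 mark the endoderm that follows. GSK3 inhibition stabilises beta-catenin, so cells in this medium receive a WNT-like signal while they remain pluripotent. Gata6, Gata4, Sox17 and Pdgfra also belong to the primitive endoderm, the extraembryonic layer beside the epiblast of the blastocyst.

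Promoter sequence is shown for T and Gsc because these were the members whose knockout samples all lay below WT. RefSeq promoter entries (GRCm38.p6) matched 6 of the 9 members, and none was at hand for Mixl1, Sox17 and Gata6. The 250 bases before the start site of T lie at chr17:8434173-8434422 on the plus strand, and capitals mark a match to the TCF/LEF core CTTTGA, here on the minus strand. For Gsc the 156 bases at chr12:104473331-104473486 on the minus strand are given, the part of its RefSeq window that lies before the transcript start of the GENCODE annotation, and it holds no capitals because it has no such match.
T: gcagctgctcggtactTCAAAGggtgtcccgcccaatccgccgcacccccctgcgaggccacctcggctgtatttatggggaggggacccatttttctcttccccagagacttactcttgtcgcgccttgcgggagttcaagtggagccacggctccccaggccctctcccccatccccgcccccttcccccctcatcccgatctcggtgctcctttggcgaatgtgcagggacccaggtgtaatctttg
Gsc: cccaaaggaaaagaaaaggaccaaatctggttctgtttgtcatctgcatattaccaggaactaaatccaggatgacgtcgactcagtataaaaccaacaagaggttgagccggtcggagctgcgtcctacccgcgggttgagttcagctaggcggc

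In these windows T had the TCF/LEF match 234 to 229 bases before the start site and a match to the T-box core AGGTGT 14 to 9 bases before it. These 2 matches do not overlap. The 250 bases before the RefSeq start site of Gsc, the last of which lie inside the GENCODE transcript, held none of the 6 motifs searched on both strands, and neither did those of Eomes. Of 32851 RefSeq promoters of the same length, 13.8% held CTTTGA, searched for TCF/LEF, and 11.8% held AGGTGT, searched for T-box factors. The other motifs were AATNNACA for FOXH1 (10.9%), CAGAC for SMAD (42.2%), AGATAA for the GATA family (9.99%) and CATTGT for SOX factors (10.7%). The matches are letters found in a window and say nothing of binding in these cells.

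**Figure D1:**
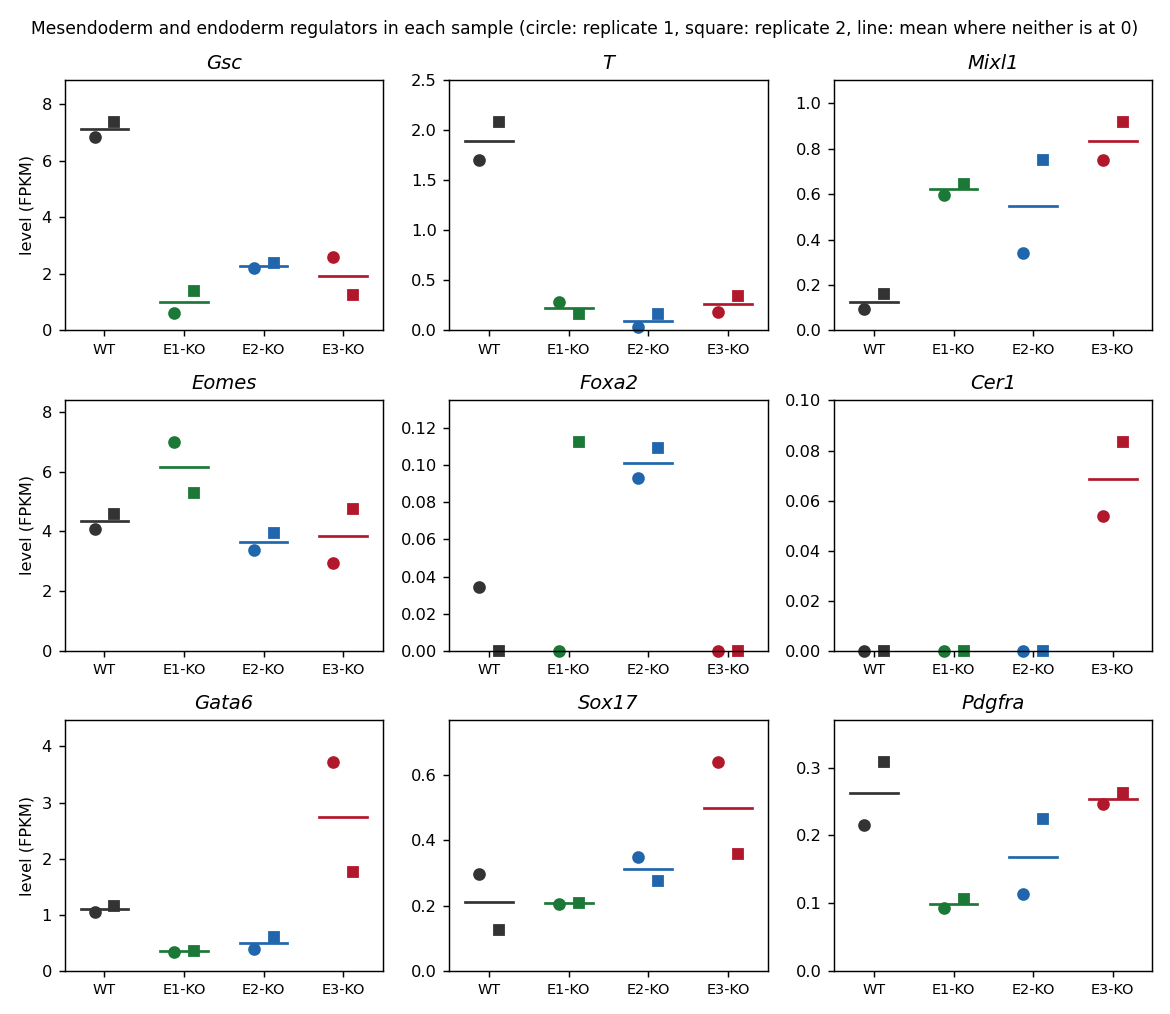
Level of each of the 9 genes in FPKM (vertical axis, a separate scale per gene) in the 8 samples (horizontal axis, by group). Circles are replicate 1, squares replicate 2, and lines the group mean where neither sample is at 0. For Gsc and T the WT points stand above all knockout points, for Mixl1 below them, and Gata6 is highest in the E3-KO samples.

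Gsc encodes goosecoid, a homeodomain repressor of the organizer and the anterior primitive streak. Its level was 6.86 and 7.39 FPKM in the WT samples, with E1-KO at 0.622 and 1.41, E2-KO at 2.21 and 2.37, and E3-KO at 2.58 and 1.27. All 6 knockout samples lay below both WT samples, and the lowest WT value was 2.66 times the highest knockout value. The group means were 7.12 ± 0.378 FPKM for WT, with E1-KO at 1.02 ± 0.556, E2-KO at 2.29 ± 0.117 and E3-KO at 1.92 ± 0.926. On the log2(FPKM + 1) scale, Gsc fell by 2.04 in E1-KO (SE 0.24, limma-trend adjusted p = 0.000518), by 1.30 in E2-KO (SE 0.24, adjusted p = 0.00411) and by 1.51 in E3-KO (SE 0.24, adjusted p = 0.00148). The 3 calls held in all 12 alternatives tried for each comparison. WT Gsc stood at the 56.7th percentile of all gene levels, so the gene was expressed at a middling level in unedited cells.

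T encodes brachyury, the T-box activator that marks the whole primitive streak and the early mesoderm. Its level was 1.70 and 2.09 FPKM in WT, with E1-KO at 0.279 and 0.161, E2-KO at 0.0363 and 0.160, and E3-KO at 0.184 and 0.348. Every knockout sample was below both WT samples, the lowest WT value being 4.89 times the highest knockout value. The mean of T in WT, 1.89 ± 0.274 FPKM, was 8.63 times that in E1-KO (0.220 ± 0.0837), 19.4 times that in E2-KO (0.0979 ± 0.0871) and 7.12 times that in E3-KO (0.266 ± 0.116). The mean over the 8 samples was under 1 FPKM, the minimum for the main test, so T was tested in the limma-trend fit of all 17727 genes without that minimum. There T fell by 1.25 in E1-KO (SE 0.11, adjusted p = 0.0018), by 1.40 in E2-KO (SE 0.11, adjusted p = 0.00162) and by 1.19 in E3-KO (SE 0.11, adjusted p = 0.00131). At these levels the added 1 FPKM shrinks the log2 values, and the ratio of the means is the larger measure of the same change.

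Mixl1 encodes a paired-type homeodomain factor of the streak that promotes endoderm. It was the member that went the other way, with 0.0928 and 0.160 FPKM in WT, with E1-KO at 0.597 and 0.644, E2-KO at 0.343 and 0.752, and E3-KO at 0.751 and 0.920. All 6 knockout samples lay above both WT samples, and the lowest of them was 2.14 times the highest WT value. In the fit without a minimum, Mixl1 rose by 0.53 in E1-KO (SE 0.13, limma-trend adjusted p = 0.0309) and by 0.70 in E3-KO (SE 0.13, adjusted p = 0.00947), and its difference in E2-KO was 0.45 (SE 0.13, adjusted p = 0.0536). These calls rest on few fragments and on single libraries. In E1-KO the call was lost when any 1 of the 4 libraries was left out (adjusted p 0.133 to 0.164). In E3-KO it was lost without E3-KO replicate 2 (adjusted p = 0.0684), WT replicate 1 (0.078) or WT replicate 2 (0.0676), and E2-KO passed without E2-KO replicate 1 (0.0279).

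Eomes encodes the T-box factor eomesodermin, which is needed for definitive endoderm and is also used in the trophoblast. It had 4.07 and 4.60 FPKM in WT, with E1-KO at 7.01 and 5.29, E2-KO at 3.36 and 3.93, and E3-KO at 2.92 and 4.76. Both E1-KO samples were above and both E2-KO samples below the WT samples, and the E3-KO samples lay on either side of them. No difference from WT passed the test, with log2 fold changes of 0.41 for E1-KO (SE 0.20, limma-trend adjusted p = 0.135), -0.20 in E2-KO (adjusted p = 0.466) and -0.16 in E3-KO (adjusted p = 0.536). The small E3-KO value turned positive after quantile normalization (0.02) and without E3-KO replicate 1 (0.11).

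**Figure D2:**
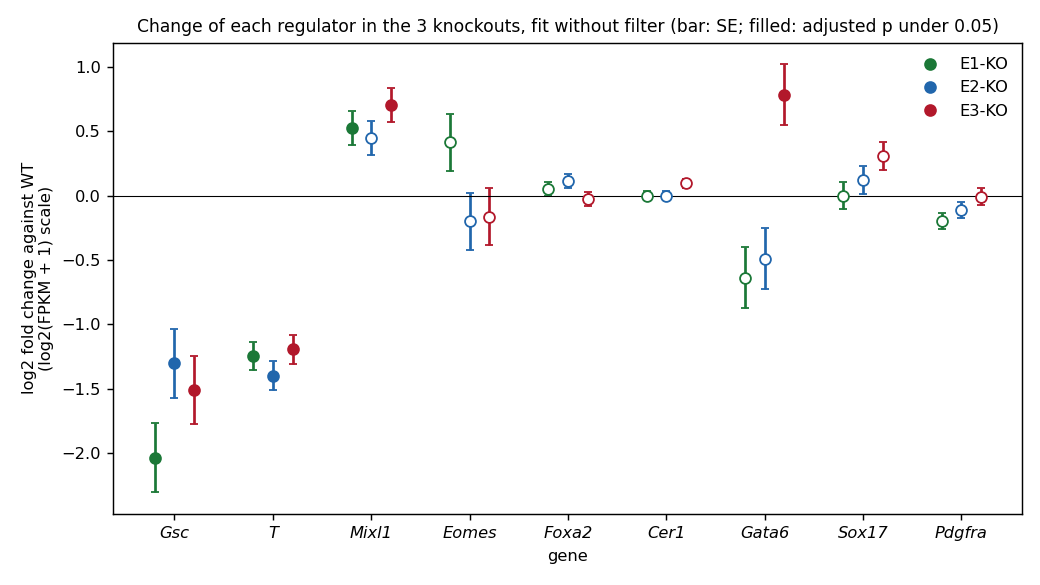
Log2 fold change against WT on the log2(FPKM + 1) scale (vertical axis) of the 9 genes (horizontal axis) for each knockout by colour, from the fit without a minimum, with bars of 1 standard error. Filled points have an adjusted p under 0.05; Gsc and T lie below 0 in all 3 knockouts, Mixl1 lies above 0, and Gata6 lies above 0 in E3-KO only.

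Foxa2 and Cer1 were near the bottom of the measured range. Foxa2, the forkhead factor of the node and endoderm, was listed at 0 in 4 samples and had at most 0.113 FPKM (E1-KO replicate 2). Cer1, a secreted antagonist of Nodal, BMP and WNT, was listed at 0 in 6 samples and had 0.0539 and 0.0835 FPKM in the E3-KO samples. In the fit without a minimum, Foxa2 had limma-trend adjusted p-values of 0.562 (E1-KO), 0.198 (E2-KO) and 0.788 (E3-KO) against WT, and Cer1 had 0.0738 in E3-KO. Cer1 passed in E3-KO with a pseudocount of 0.1 (adjusted p = 0.034), without E3-KO replicate 1 (0.0167) and without E3-KO replicate 2 (0.0408), at levels where 6 of 8 samples are listed at 0.

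Sox17, an HMG-box factor of both definitive and primitive endoderm, had 0.296 and 0.125 FPKM in WT, with E1-KO at 0.206 and 0.210, E2-KO at 0.348 and 0.275, and E3-KO at 0.641 and 0.359. Both E3-KO samples were above both WT samples, and the E1-KO samples lay between the WT samples. The E3-KO difference was 0.31 on the log2 scale (SE 0.11, limma-trend adjusted p = 0.0753 without a minimum) and did not pass, although it did without E3-KO replicate 2 (0.44, adjusted p = 0.0442). Pdgfra, the receptor for PDGF that marks the primitive endoderm and later the paraxial mesoderm, had 0.215 and 0.308 FPKM in WT. E1-KO had 0.0924 and 0.106, E2-KO 0.113 and 0.224, and E3-KO 0.246 and 0.262. Its E1-KO samples lay below both WT samples, but the difference of -0.20 did not pass (SE 0.06, adjusted p = 0.0687).

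Gata6 encodes the zinc finger factor that drives primitive endoderm and later acts in definitive endoderm and heart. It had 1.04 and 1.15 FPKM in WT, with E1-KO at 0.344 and 0.350, E2-KO at 0.392 and 0.597, and E3-KO at 3.72 and 1.76. The 4 samples of E1-KO and E2-KO were below both WT samples, and the 2 of E3-KO were above them. Group means were 1.09 ± 0.0746 FPKM for WT, with E1-KO at 0.347 ± 0.00479, E2-KO at 0.495 ± 0.145 and E3-KO at 2.74 ± 1.39. Gata6 rose by 0.79 in E3-KO (SE 0.24, limma-trend adjusted p = 0.025, and 0.0476 in the fit without a minimum). The differences of -0.64 in E1-KO (adjusted p = 0.062) and -0.49 in E2-KO (adjusted p = 0.137) did not pass.

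The E3-KO call depended on single libraries, with 0.40 (adjusted p = 0.137) without E3-KO replicate 1, 0.75 (0.104) without WT replicate 1 and 0.82 (0.0863) without WT replicate 2. Gata6 in E1-KO passed when only the E1-KO and WT samples were fitted (-0.64, adjusted p = 0.0111) or with a pseudocount of 0.1 (-1.42, adjusted p = 0.0225). A transcript on the opposite strand overlaps Gata6 in the annotation, as it does for Eomes, Sox17 and Pdgfra. Whether the counting used strand is not given in the sources used here, so reads of the overlapping pairs cannot be told apart.

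Markers of other cell types stood beside Gata6 in E3-KO as follows. Trophectoderm markers summed to 75.4 and 55.2 FPKM in the E3-KO samples, with WT at 51.4 and 54.7, E1-KO at 40.0 and 34.5 and E2-KO at 34.9 and 40.4. Of the 5 trophectoderm genes tested, 3 rose and none fell in E3-KO, 1 rose and 2 fell in E1-KO, and none rose and 2 fell in E2-KO. Over all 11272 tested genes, 13.9% were higher and 30.8% lower in E3-KO, 15% and 23% in E1-KO, and 14.2% and 21.9% in E2-KO. Gata3, a relative of Gata6 used in the trophectoderm, was 8.86 and 4.84 FPKM in E3-KO against 1.48 and 1.56 in WT (log2 fold change 1.59, limma-trend adjusted p = 0.00227). Ascl2 (1.21, adjusted p = 0.00693) and Krt8 (1.16, adjusted p = 0.00149) rose too, and Krt18, at 12.3 and 7.14 FPKM, did not pass (-0.06, adjusted p = 0.848), although it fell in E2-KO (-1.46, adjusted p = 0.00122). Tfap2c made up most of the WT sums, at 32.4 and 34.9 FPKM. It was lower in E3-KO, at 29.3 and 26.4 FPKM, but did not pass there (-0.27, adjusted p = 0.1). Tfap2c fell in E1-KO (-1.01, adjusted p = 0.000512) and E2-KO (-0.64, adjusted p = 0.00419). In E1-KO, Krt8 rose (0.64, adjusted p = 0.025) and Krt18 fell (-0.67, adjusted p = 0.032). Without a minimum both calls were lost (limma-trend adjusted p = 0.0615 and 0.0797), and that of Krt18 also with quantile normalization (0.0574). Krt8 lost the call without E1-KO replicate 1, WT replicate 1 or WT replicate 2 (log2 fold changes 0.45, 0.54 and 0.74). Krt18 lost it without any 1 of the 4 libraries (-0.77 to -0.58). In E3-KO replicate 1, 6 of the 7 trophectoderm genes were higher than in replicate 2 and Elf5 was lower, while of the members 3 were higher (Gsc, Gata6 and Sox17) and 5 lower. All 7 pluripotency markers were also higher in replicate 1, and of the 13 primitive endoderm genes 7 were higher and 6 lower.

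The primitive endoderm list summed to 386 and 365 FPKM in E3-KO, with WT at 258 and 274, E1-KO at 278 and 273, and E2-KO at 276 and 279. Without Sparc, which alone had 231 and 200 FPKM in E3-KO against 87.9 and 94.2 in WT, the other 12 genes summed to 155 and 165 in E3-KO, below the 170.1 and 180.3 of WT. None of the 13 measured genes was at 0 in all samples, and 5 stayed under 0.3 FPKM in every sample. These were Sox7, Amn, Afp, Cubn and Pth1r, of which Cubn and Amn had their highest values, 0.282 and 0.223 FPKM, in E3-KO replicate 1. The part of these other genes in the Gata6 result was not tested, and in RNA from whole cultures a few cells with much Gata6 RNA cannot be told apart from many cells with little.

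**Figure D3:**
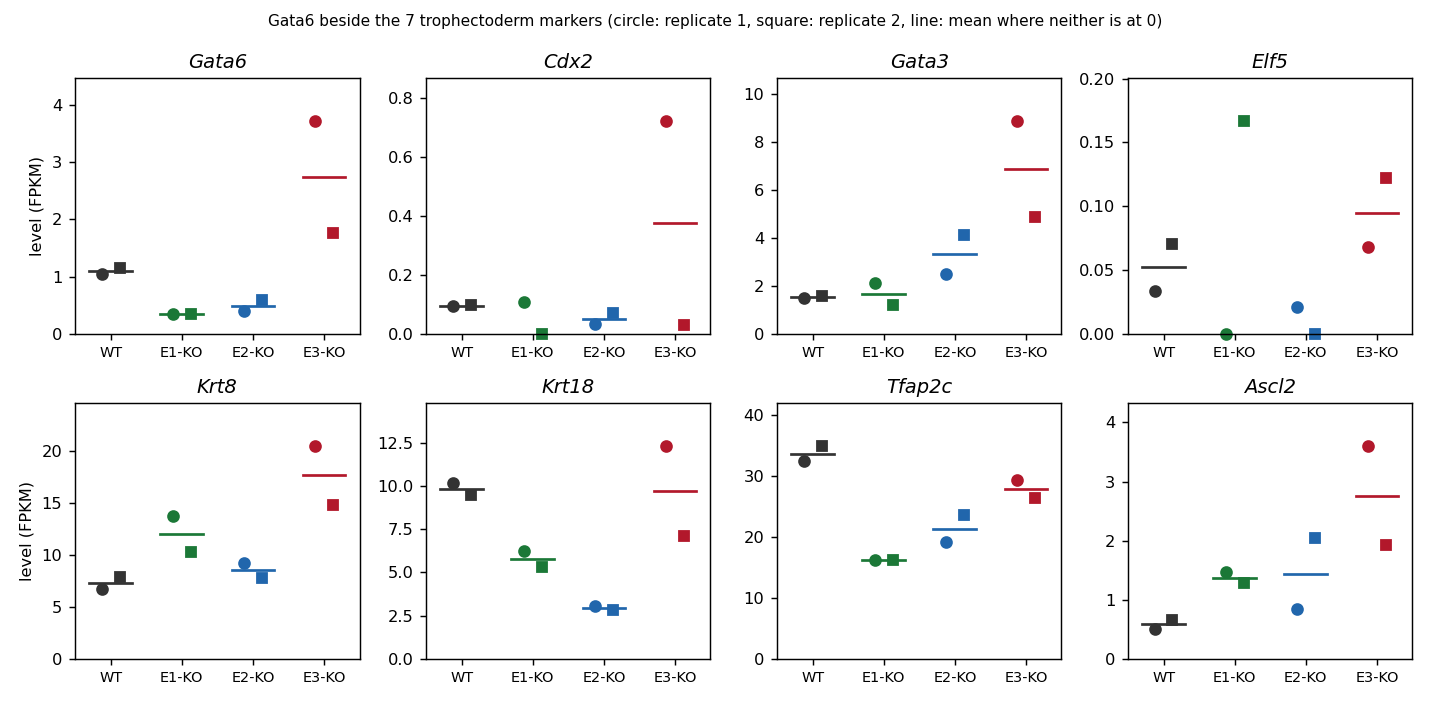
Level in FPKM (vertical axes) of Gata6 and all 7 genes of the trophectoderm list in the 8 samples by group. Circles are replicate 1, squares replicate 2, and lines the mean where neither is at 0; in E3-KO the circle stands above the square for Gata6 (3.72 and 1.76 FPKM) and for 6 of the 7 markers, and below it for Elf5.

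Markers of other cell types also moved against WT. Thy1, the fibroblast marker that reached the minimum and also a marker of neurons, had a mean of 0.768 FPKM in WT and rose in each knockout, with E1-KO at 2.61, E2-KO at 1.53 and E3-KO at 2.69 (limma-trend adjusted p = 0.00175, 0.0374 and 0.00115). The E2-KO call of Thy1 was lost without E2-KO replicate 2, WT replicate 1 or WT replicate 2 (log2 fold changes 0.34, 0.57 and 0.45). It was also lost with the pair alone (limma-trend adjusted p = 0.068) and without a minimum (0.0588). Of 4 neuroectoderm genes tested, 3 rose in E1-KO, 2 rose and 1 fell in E2-KO, and 2 rose in E3-KO. Over all tested genes, 15%, 14.2% and 13.9% were higher in E1-KO, E2-KO and E3-KO, and 23%, 21.9% and 30.8% lower. The neural adhesion gene Ncam1 rose in each (0.56, 0.70 and 0.54), but lost the call in E1-KO without E1-KO replicate 1 (adjusted p = 0.0632) or WT replicate 2 (0.0607) and in E3-KO without WT replicate 2 (0.0545). The neural factor Pax6 rose in E1-KO by 1.24 (adjusted p = 0.00282) and in E2-KO by 0.66 (0.0415). Pax6 reached the minimum mainly through E1-KO (mean 2.39 FPKM), with WT at 0.435, E2-KO at 1.31 and E3-KO at 0.777. Without a minimum, its limma-trend adjusted p-values were 0.00984 in E1-KO and 0.0714 in E2-KO. The E2-KO call was also lost with a replicate block (0.0586), the pair alone (0.0673) and quantile normalization (0.0913). It was lost as well without E2-KO replicate 1, WT replicate 1 or WT replicate 2 (log2 fold changes 0.36, 0.54 and 0.78). Nes, which encodes nestin, rose by 0.87 in E3-KO (adjusted p = 0.00188). Its call in E1-KO (0.47, limma-trend adjusted p = 0.0344) was lost without a minimum (0.0681). It was also lost without any single E1-KO or WT library (log2 fold changes 0.34 to 0.60). Map2 fell in E2-KO (-0.78, adjusted p = 0.0328), a call lost without a minimum (0.0652). That call was also lost without E2-KO replicate 1 or WT replicate 1 (log2 fold changes -0.60 and -0.55). The pluripotency list had 4 of 7 genes lower in E1-KO, 3 lower and 2 higher in E2-KO, and 4 lower in E3-KO. Of all tested genes, 23%, 21.9% and 30.8% were lower in these comparisons, and 14.2% were higher in E2-KO. Esrrb fell by 0.63 in E3-KO (adjusted p = 0.0018). The part of these markers in the results for the members was not tested.

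Counted over the members, the main test covered 3 of the 9, Gsc, Gata6 and Eomes, and the other 6 had a mean under 1 FPKM. The 3 that passed this minimum are not the whole list. Gata6 reached it, with a mean of 1.17 FPKM, through the E3-KO samples, since its mean without them was 0.645, so its tests are read with those of the fit without a minimum. In E1-KO against WT 1 of the 3 was called, lower, where 38% of all 11272 tested genes were called and 23% were lower. In E2-KO it was again 1 of 3, lower, against 36.1% of all genes called and 21.9% lower. In E3-KO 2 of 3 were called, 1 higher and 1 lower, against 44.7% of all genes, 13.9% higher and 30.8% lower. In the fit without a minimum, 3 of the 9 members were called for E1-KO (22.7% of all 17727 genes), 2 for E2-KO (21.1%) and 4 for E3-KO (29.1%). These shares do not set the members apart from the genes at large, and the description rests on the single genes.

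Between the knockouts, Gata6 separated E3-KO from the other two. Its E3-KO level exceeded that of E1-KO by 1.42 on the log2 scale (SE 0.24, limma-trend adjusted p = 0.00316) and that of E2-KO by 1.28 (SE 0.24, adjusted p = 0.00936). Without a minimum these adjusted p-values were 0.0112 and 0.0274. Both E3-KO samples exceeded all 4 samples of the other knockouts. The difference from E2-KO was 1.18 (adjusted p = 0.0515) without E2-KO replicate 1. Gata6 was the 1 called member of 3 in each of these comparisons, in which 25.8% (9.41% higher) and 15.6% (5.48% higher) of all genes were called. The order of its levels was E3-KO, WT, E2-KO and E1-KO, and the neighbours E2-KO and E1-KO did not differ beyond their spread by the test (0.15, adjusted p = 0.783).

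Gsc had the order WT, E2-KO, E3-KO and E1-KO, and the knockouts were not separated by the test. In limma-trend, E2-KO lay 0.73 above E1-KO (adjusted p = 0.166), E3-KO 0.53 above E1-KO (adjusted p = 0.142), and E3-KO minus E2-KO was -0.21 (adjusted p = 0.598). Without E3-KO replicate 2, the E3-KO excess over E1-KO became 0.86 (adjusted p = 0.039). Eomes had the order E1-KO, WT, E3-KO and E2-KO, with E3-KO below E1-KO by -0.58 (adjusted p = 0.0649, or -0.86 and 0.0194 without E3-KO replicate 2). Between E2-KO and E1-KO limma-trend called none of the 3 members (2 had an unadjusted p under 0.05), and 0.834% of all genes were called. In the fit without a minimum, no difference in T or Mixl1 between knockouts passed; 0.00564% of all genes did for E2-KO against E1-KO, 16.4% for E3-KO against E1-KO and 8.03% for E3-KO against E2-KO.

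The signals and target genes around the members were described from lists. Among 8 inducing signals, 5 were tested, and Lefty2, a secreted Nodal antagonist that is itself switched on by Nodal, fell in all 3 knockouts. Lefty2 had 43.1 ± 0.622 FPKM in WT with E1-KO at 15.6 ± 6.24, E2-KO at 7.68 ± 3.45 and E3-KO at 14.0 ± 3.29 (log2 fold changes -1.46, -2.40 and -1.58, limma-trend adjusted p = 0.00626, 0.000746 and 0.00341). In all, 1 of the 5 rose and 2 fell in E1-KO, and 2 fell with none higher in either of the other knockouts, beside the shares of all genes given above (23%, 21.9% and 30.8% lower). Their median log2 fold changes were -0.42, -0.13 and -0.34, beside the -0.06, -0.08 and -0.15 of all genes. Nodal itself had 30.4 and 35.5 FPKM in WT and 23.8 and 24.7 in E1-KO, where it fell (-0.42, adjusted p = 0.0169), and it did not pass in E2-KO (29.9 and 29.9) or E3-KO (36.7 and 32.1). The Nodal call was lost without E1-KO replicate 1 (adjusted p = 0.102), E1-KO replicate 2 (0.0666) or WT replicate 2 (0.149). Lefty1 fell in E2-KO (-1.27, adjusted p = 0.0148, lost without E2-KO replicate 1 at 0.0937 or WT replicate 1 at 0.108). Bmp4, a signal for the posterior streak, rose in E1-KO (0.87, adjusted p = 0.00836, lost without E1-KO replicate 1 at 0.0611 or WT replicate 1 at 0.0643), while Wnt3 and Fgf8 were under 1 FPKM in all samples.

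All 7 Nodal receptors and transducers were tested. In each knockout 1 of them rose, while 4 fell in E1-KO (23% of all genes lower), 4 in E2-KO (21.9%) and 3 in E3-KO (30.8%). Their medians were -0.51, -0.71 and -0.35. Acvr1b, the type I receptor that passes on Nodal, fell in the 3 knockouts (log2 fold changes -0.68, -1.001 and -1.15, limma-trend adjusted p = 0.00274, 0.000541 and 0.000178). Acvr2b, a type II receptor, fell as well (-0.51, -0.72 and -0.97, adjusted p = 0.0144, 0.0035 and 0.000613), but in E1-KO the call was lost without E1-KO replicate 1, WT replicate 1 or WT replicate 2 (adjusted p 0.0766 to 0.115) and with quantile normalization (0.054). Smad3, a transducer of Nodal, fell in E1-KO (-1.03, adjusted p = 0.0111) and E2-KO (-1.17, adjusted p = 0.00685). The Smad3 call was lost in E1-KO without E1-KO replicate 1 (0.0756) or WT replicate 2 (0.0802), and in E2-KO without WT replicate 2 (0.0562). The gene that rose was Foxh1, the DNA-binding partner of the Nodal-activated SMAD proteins, with 0.54, 0.83 and 0.49 (adjusted p = 0.00836, 0.00127 and 0.0105). Its call was lost in E1-KO without E1-KO replicate 1 (adjusted p = 0.0795) or WT replicate 1 (0.0645), and in E3-KO without E3-KO replicate 1 (0.0538) or WT replicate 1 (0.0766).

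Of 12 other streak and mesoderm genes, 3 reached the minimum. Each knockout had 1 of them higher, and 1 was lower in E1-KO and 2 in either of the others. Of all tested genes, 15%, 14.2% and 13.9% were higher in E1-KO, E2-KO and E3-KO, and 23%, 21.9% and 30.8% lower. Sp5, a zinc finger target of WNT and beta-catenin, moved like T, from 9.07 and 10.8 FPKM in WT down to 1.25 or less, with E1-KO at 1.18 and 1.25, E2-KO at 0.380 and 0.368, and E3-KO at 0.741 and 1.15. It fell in all 3 (log2 fold changes -2.30, -2.99 and -2.49, limma-trend adjusted p = 6.19e-05, 4.06e-05 and 4.41e-05), and its knockout samples did not overlap with WT. Sp5 reached the minimum mainly through WT (mean 9.93 FPKM), with E1-KO at 1.21, E2-KO at 0.374 and E3-KO at 0.945. In the fit without a minimum its limma-trend adjusted p-values were 0.00103, 0.000847 and 0.000553. Snai1, the repressor that acts in cells leaving the streak, rose like Mixl1, from 0.453 and 0.422 FPKM in WT to between 1.29 and 4.67 in the knockouts (0.92, 0.87 and 1.96, adjusted p = 0.00454, 0.0062 and 0.000117). Cdx1, the third tested gene, a caudal homeobox factor, fell in E2-KO (-1.49) and E3-KO (-1.93). The median of all 12 without a minimum was 0.22, 0.11 and 0.12, and that of the 3 tested was -0.43, -1.49 and -1.93, so the sign of this list's median depends on the low genes.

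Among 8 definitive endoderm genes, 4 were tested, of which 2 fell in E1-KO, 2 also in E2-KO and 3 in E3-KO, with none higher, against 23%, 21.9% and 30.8% of all genes lower. Prdm1, a zinc finger repressor, went from 6.63 ± 0.811 FPKM in WT to 2.32 ± 0.18 (E1-KO), 1.49 ± 0.181 (E2-KO) and 2.15 ± 0.0417 (E3-KO), with log2 fold changes in that order of -1.20, -1.61 and -1.27 (limma-trend adjusted p = 0.000545, 0.000183 and 0.000277). Otx2, a homeobox factor that also acts in the primed epiblast, fell likewise (-1.34, -1.77 and -1.35). Trh, the gene for thyrotropin-releasing hormone, fell in E3-KO (-1.21, adjusted p = 0.000871). It lies on chromosome 6, where 64.7% of 535 tested genes were lower in E3-KO and the median was -0.62. Hhex, a homeobox factor of the anterior endoderm, had 8.22 to 10.8 FPKM over all 8 samples and did not pass in any knockout.

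Primitive endoderm markers moved in both directions. Of the 8 tested, E1-KO had 2 higher and 4 lower (15% and 23% of all genes), E2-KO 3 higher and 4 lower (14.2% and 21.9%), and E3-KO 3 higher and 2 lower (13.9% and 30.8%). Their medians were -0.22, -0.12 and 0.09. Lama1, a basement membrane laminin chain, fell from 28.8 ± 0.899 FPKM in WT in every knockout (-2.35, -1.21 and -1.52), in E3-KO as well as where Gata6 was low. Sparc, a matrix glycoprotein, rose by 0.71, 0.62 and 1.23, and the endocytic receptor gene Lrp2 rose by 0.98, 0.93 and 1.12. Col4a1, a basement membrane collagen, rose in E2-KO (0.58, adjusted p = 0.0229) and E3-KO (0.84, adjusted p = 0.0034). The E2-KO call of Col4a1 was lost without E2-KO replicate 1, WT replicate 1 or WT replicate 2 (log2 fold changes 0.47, 0.55 and 0.61). It was also lost without a minimum (limma-trend adjusted p = 0.0564). Sparc and Lrp2 rose in E1-KO and E2-KO too, where Gata6 was below both WT samples. Hnf4a instead fell in E1-KO (-0.84, limma-trend adjusted p = 0.00369) and E2-KO (-0.61, 0.0161) and did not pass in E3-KO (-0.17, 0.408). In E3-KO against E1-KO, 4 of the 8 were higher and none lower, beside 9.41% of all genes higher. In E3-KO against E2-KO, 1 was higher and none lower (5.48% of all genes higher). A link of these genes to Gata6 was not tested.

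**Figure D4:**
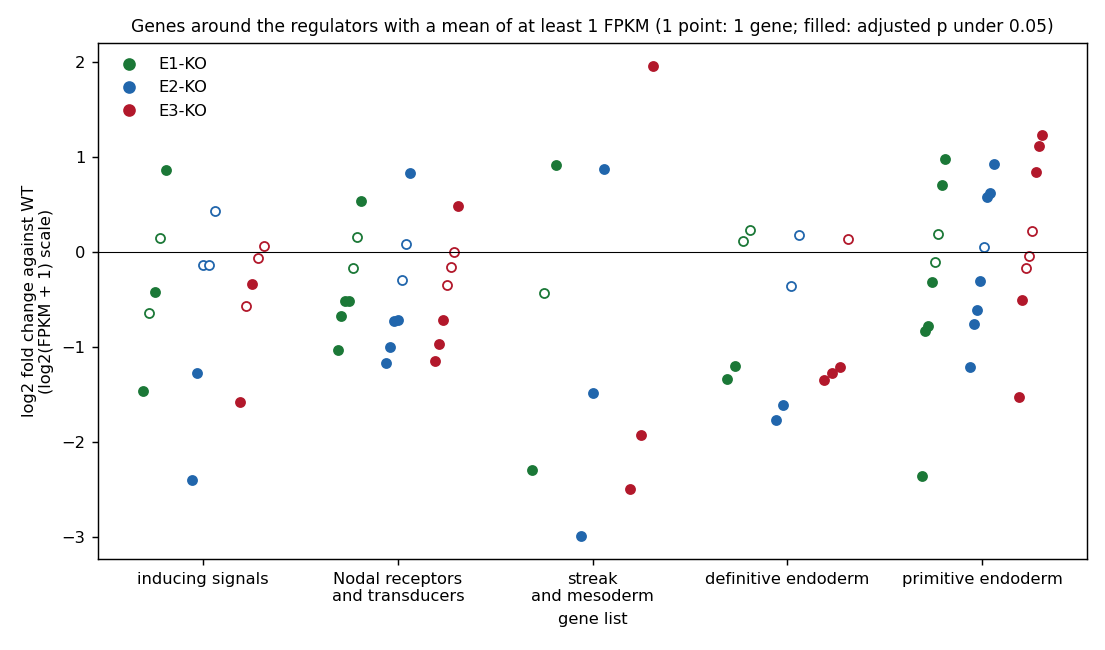
Log2 fold change against WT on the log2(FPKM + 1) scale (vertical axis) for the tested genes of 5 lists (horizontal axis) in each knockout. Each point is 1 gene, filled where the adjusted p was under 0.05; Sp5 at -2.99 in E2-KO is the lowest point and Snai1 at 1.96 in E3-KO the highest.

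For the members of the main test that changed against WT, the genes most like them over the 8 samples were found by the root mean square difference of their log2 values, each taken relative to the gene's own WT mean. For Gsc, whose own profile lay 1.44 from WT, the nearest of 11271 genes were Car8 (0.208), Sgk3 (0.224) and Acox3 (0.258). Car8 had 13.7 FPKM in WT, and E1-KO had 2.33, E2-KO 4.59 and E3-KO 5.01. For Gata6, whose own profile lay 0.597 from WT, they were Flvcr2 (0.188), Miip (0.194) and 1700024B05Rik (0.199). Miip had 4.99 FPKM in WT, with E1-KO at 2.36, E2-KO at 3.30 and E3-KO at 9.28. These genes were picked for likeness over the same 8 samples, so a shared order of groups is no separate result.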

How the data were processed

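Total RNA from 8 samples (4 groups of 2, numbered by title) was sequenced as paired-end 150-base reads, per the labels' protocols. Trimmomatic 0.36, TopHat2 2.0.12, Cufflinks 2.2.1 and the build mm9 are named in the submitters' processing notes, without role or order. The authors deposited 1 value per gene row, taken here as FPKM from the values and the tool named; no header states the unit, and depth is unknown. The annotation at hand was GRCm38 (GENCODE M21), so no gene coordinates are given.

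Each file held 18774 rows and 17812 identifiers, of which 17262 matched a symbol. Of 660 repeated identifiers, 575 were settled by row order and 85 left out, and no member was repeated. The 11272 genes whose mean over the samples reached 1 FPKM were tested on log2(FPKM + 1) with limma-trend (limma 3.58.1, R 4.3.3), all 8 samples in the same fit and group as the only term, with 4 residual degrees of freedom, called at a two-sided Benjamini-Hochberg adjusted p under 0.05. The 6 members below the minimum were read from the same fit of all 17727 genes. Log2 fold changes are on that scale and understate changes of low genes. Replicates are called biological duplicates, and p-values measure only the spread between them.

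The genes named beside the members were up to 4 called genes per list with the largest change, and for each called member the 3 nearest profiles; other list genes were named after their values were seen. The members and lists were chosen with earlier results of these data known. Alternatives were the replicate block, the pair of groups alone, a pseudocount of 0.1, quantile and median-ratio scaling, limma without trend, no minimum, summing repeated identifiers, and each replicate left out; combining them with no minimum was chosen after seeing the data. The script was tested on simulated data for E1-KO against WT, with changes of 1 on the log2(FPKM + 1) scale. It recovered 55% of them in genes under 5 FPKM and 83.5% in genes of at least 5 FPKM. A low gene that did not pass is therefore not shown to be unchanged. Motifs were searched in RefSeq promoters of GRCm38.p6, and figures drawn with matplotlib 3.10.9 in Python 3.11.15.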

Additional observations from a re-analysis of the deposited data

Results flagged for a closer look

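Gata6 responded differently in the knockouts by a direct test between them. Its E3-KO level exceeded that of E1-KO by 1.42 on the log2(FPKM + 1) scale (limma-trend adjusted p = 0.00316) and that of E2-KO by 1.28 (adjusted p = 0.00936), in 2 of 2 E3-KO samples, and without a minimum on levels the adjusted p-values were 0.0112 and 0.0274. Both rest on E3-KO samples of 3.72 and 1.76 FPKM, whose group SD of 1.39 was the widest of the 4 groups for this gene.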

How the results depend on the processing

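Gsc and T kept their direction and call against WT in every knockout under each alternative tried, with adjusted p-values of at most 0.0355 for Gsc and 0.0399 for T. Of the 3 tested members, 2 were called in E1-KO against WT with the pair alone and 2 with a pseudocount of 0.1, where the main test called 1. Without a minimum, the counts against WT were 3, 2 and 4 of 9 members in E1-KO, E2-KO and E3-KO, more genes having been tested. Leaving out single replicates gave counts of 1 to 2 in E3-KO against WT, 1 to 3 in E3-KO against E1-KO and 0 to 1 in E3-KO against E2-KO; a lone sample was then assumed to vary like the other groups.

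Over the up to 4 called genes per list with the largest change, 783 recomputed values kept the call, 69 lost it and none changed sign. Called list genes beyond these, Hnf4a and Tfap2c among them, were not part of this count.

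Values that changed sign were not called in the main test or without a minimum. Against WT in E1-KO, Foxa2 was -0.0245 without E1-KO replicate 2, and Sox17 was -0.0022 without E1-KO replicate 2 and -0.10 without WT replicate 2. In E3-KO, Eomes was 0.0249 with quantile normalization and -0.44 to 0.11 with single replicates left out, and Pdgfra was 0.0224 with median-ratio scaling, 0.0011 without E3-KO replicate 1 and 0.0452 without WT replicate 2. For E2-KO against E1-KO, Mixl1 was 0.11 without E2-KO replicate 1 and Foxa2 was -0.015 without E1-KO replicate 1. For E3-KO against E1-KO, T was -0.0134 with quantile normalization, -0.0175 without E1-KO replicate 2 and -0.0409 without E3-KO replicate 2. For E3-KO against E2-KO, Gsc was -0.54 to 0.12 and Eomes -0.24 to 0.31 with single replicates left out (Eomes was -0.0539 without E2-KO replicate 1). The cause was not tested.

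Replicate numbers did not pair the samples, since deviations of same-numbered samples correlated by -0.042 to 0.09 (mean 0.005). With the replicate block the counts of called members were 1, 1 and 2 against WT, and Gsc had adjusted p-values of 0.0015, 0.00835 and 0.00341. Without a minimum, the block brought Mixl1 in E2-KO (adjusted p = 0.0375) and Sox17 in E3-KO (0.044) past the threshold. Unknown depth limits the 5 members that stayed under 1 FPKM in all samples, for which Cer1 in E3-KO ranged from an adjusted p of 0.0167 to one above the threshold.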

Other observations

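Relatives of the members were looked at after the values had been seen, as all T-box and GATA genes found by symbol. Of 13 T-box genes, T and Eomes included, 8 had a mean under 1 FPKM in every group. Tbx3, a T-box factor of naive pluripotent cells, was by far the highest, at 99.5 FPKM in WT, where E1-KO had 66.2, E2-KO 80.6 and E3-KO 94.7. It fell in E1-KO (-0.58, limma-trend adjusted p = 0.00398) and did not pass in E2-KO (-0.30, adjusted p = 0.063) or E3-KO (-0.07, adjusted p = 0.642). In the fit without a minimum, 4 T-box genes fell in E1-KO, and T was the only T-box gene that fell in either of the other knockouts. In that fit 22.7%, 21.1% and 29.1% of all genes were called in E1-KO, E2-KO and E3-KO. Tbx21, under 1 FPKM in all samples, rose there in E2-KO (0.55, adjusted p = 0.03). Tbx18 had 1.84 and 1.59 FPKM in E1-KO against 0.873 and 0.981 in WT. It rose by 0.49 (limma-trend adjusted p = 0.0326 in the main test and 0.0241 without a minimum). Tbx18 reached the minimum mainly through E1-KO (mean 1.71 FPKM), with WT at 0.927, E2-KO at 1.12 and E3-KO at 0.630.

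Of 5 GATA genes, Gata2 had 3.46 and 3.79 FPKM in WT, with E1-KO at 0.822 and 1.06, E2-KO at 1.16 and 1.29, and E3-KO at 3.80 and 2.50. As for Gata6, the 4 samples of E1-KO and E2-KO lay below both WT samples, and for Gata2 the difference was called in both (limma-trend adjusted p = 0.00109 and 0.0027). Gata2 lies on chromosome 6, where 64.7% of 535 tested genes were lower in E3-KO and the median was -0.62. Its E3-KO level is read with that limit. Gata1 and Gata5 were under 1 FPKM in all samples.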
